A study of Mus musculus with 21 samples.

Results

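The genes described here are Pim1, Pim2, Pim3, Myc and Odc1, taken by name from the gene rows of 21 single-cell RNA libraries of mouse CD8 T cells. They are 5 of the 17516 genes in the count tables, and all 5 were present in every table. The PIM proteins are serine/threonine kinases that are active once translated, so that their amount is set largely by how much mRNA is made and by how fast the protein is degraded. Cytokines of the IL-2 family act through JAK1, JAK3 and STAT5, and Pim1 is a classic STAT5 target in T cells. MYC is a transcription factor for growth, ribosome and metabolic genes, with a very short-lived mRNA and protein, and Odc1 encodes ornithine decarboxylase, the rate-limiting enzyme of polyamine synthesis and a classic MYC target.

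The study cultured CD8 T cells of OT1 mice, which carry a transgenic T cell receptor for an ovalbumin peptide, and asked how IL-2, IL-15 and a changed form of IL-2 differ in what they do to these cells. The naive library was made on day 0, before any treatment. All other cells were stimulated with beads coated with anti-CD3 and anti-CD28, and so share that stimulus. On days 3 and 5 there was a library without cytokine. IL-2, IL-2v (named a mutant IL-2bg in the treatment labels) and IL-15 were each given at 5 and at 50 IU/mL, and each was sampled on days 3, 5 and 10. A library without cytokine on day 10 was not analysed here. The treatment labels of the 50 IU/mL IL-2 libraries read Interleukin-3 and those of 50 IU/mL IL-15 read Interleukin-16, and the sample titles and the series' design text were followed instead. The labels describe a sort of live CD44+CD45.1+CD8+ cells from tumours alongside the culture, and give neither the age nor the number of the mice.

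Each of the 21 conditions was 1 library. No difference below therefore has a replicate check, and no p-value is given. Intervals cover counting error only. The libraries held 3250 to 7105 kept cells each, 106456 in all, and 10589950 to 32648496 UMIs (unique molecular identifiers, each marking 1 captured mRNA molecule). The median cell had 3016 to 5065 UMIs. Cd3d, a chain of the T cell receptor complex, had a UMI in 93.0% to 99.5% of cells and Cd8b1, the CD8 beta chain, in 54.5% to 92.0%. Cells with UMIs of at least 2 markers of B, myeloid or erythroid cells, or with Cd4 and neither Cd8a nor Cd8b1, made up 0% to 0.691% of a library. Single markers were found in more cells, Cd79b of B cells in 0.727% to 7.45% and the myeloid marker Cd68 in 0.385% to 7.39%, while Ms4a1 of B cells was found in at most 0.0209% and Csf1r and Lyz2 of myeloid cells in at most 0.126%. The highest Cd68 share was with 50 IU/mL IL-2 on day 10, and the next was 2.85%; its part in the results of that library was not tested. Any pair of libraries shared 1 to 19 cell barcodes. A level is given as CPM, a gene's UMIs per 1000000 UMIs of all genes, summed over the cells of a library. CPM is not divided by gene length, so each gene is compared only with itself.

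The genes lie on 4 chromosomes of the mouse genome GRCm38 (mm10), all on the plus strand. Pim1 spans chr17:29490753-29496112, Pim2 chrX:7878262-7883432, Pim3 chr15:88862186-88865726, Myc chr15:61985391-61990374 and Odc1 chr12:17544794-17551505 in GENCODE annotation. All are protein-coding. Pim1 shares 488 of its exonic bases (14.5%) with the antisense gene Gm26885, which was counted at 0.586 to 10.3 CPM, and whether reads were counted by strand is not given in the sources used here. Odc1 has many processed copies in the genome, and reads shared with them could be lost or split, so its level carries that uncertainty. AW146154, annotated as a processed transcript and not as a pseudogene, is 92.1% identical to Odc1 over 921 aligned bases. It had its own row in the tables, with 2.64 to 10.7 CPM. Pim2 has the processed copies Gm21182 and Gm7645, at 94.7% and 94.9% identity, which have no row in the tables.

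The stretches just upstream of the annotated starts are shown because STAT5 and MYC act on DNA through short motifs. They come from RefSeq's promoter table for GRCm38.p6, 5′ to 3′. The first 4 end at the base before the GENCODE start, and the last lies inside Pim1, around the E-box before its second RefSeq start.
Pim1 (chr17:29490535-29490752, plus strand): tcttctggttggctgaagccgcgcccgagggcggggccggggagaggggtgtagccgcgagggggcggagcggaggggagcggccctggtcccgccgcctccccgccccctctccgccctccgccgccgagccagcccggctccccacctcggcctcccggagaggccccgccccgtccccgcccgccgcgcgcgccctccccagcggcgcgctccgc
Pim2 (chrX:7878056-7878261, plus strand): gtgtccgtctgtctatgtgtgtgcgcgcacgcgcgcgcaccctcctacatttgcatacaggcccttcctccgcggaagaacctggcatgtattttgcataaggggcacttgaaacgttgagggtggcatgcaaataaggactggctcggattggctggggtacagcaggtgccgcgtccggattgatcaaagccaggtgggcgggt
Pim3 (chr15:88861944-88862185, plus strand): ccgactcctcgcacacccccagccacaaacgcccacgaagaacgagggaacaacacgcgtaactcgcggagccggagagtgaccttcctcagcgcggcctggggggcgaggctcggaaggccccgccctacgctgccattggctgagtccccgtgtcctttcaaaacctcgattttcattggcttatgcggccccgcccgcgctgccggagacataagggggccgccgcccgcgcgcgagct
Odc1 (chr12:17544623-17544793, plus strand): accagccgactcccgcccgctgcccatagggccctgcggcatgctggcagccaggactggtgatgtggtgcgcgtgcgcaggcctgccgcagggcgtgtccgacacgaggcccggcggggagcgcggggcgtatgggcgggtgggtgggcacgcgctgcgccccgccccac
Pim1, second start (chr17:29493015-29493044, plus strand, within the gene): gtaaacaggaatCACGTGgtctgaaaccag
The capitals mark the MYC E-box CACGTG. The STAT motif TTCNNNGAA and the E-box, both of which read the same on either strand, were searched in the 250 bases before the RefSeq starts of Pim1, Pim2, Pim3 and Odc1. Sites outside these windows, further upstream or within the genes, were not searched, and RefSeq's promoter table had no entry for Myc. The STAT motif was in none of these windows. The E-box was only in the window of the second Pim1 start, 58 bases before that start. Among 32851 such windows, 7.02% held the STAT motif and 6.02% the E-box. The windows of the first Pim1 start and of Odc1 were 82.4% and 80% G or C, those of Pim3, Pim2 and the second Pim1 start 68%, 62% and 48%.

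Pim1, the first member found of the family and a kinase that promotes survival and growth, was lowest in naive cells and highest with IL-2 at 50 IU/mL on day 3. The naive library had 79.3 CPM (95% interval 75.3 to 83.5, 1465 UMIs). Without cytokine Pim1 stood at 192 CPM on day 3 and 89.5 CPM on day 5. On day 3 it was at 247 CPM with 5 and 485 CPM with 50 IU/mL IL-2, at 340.4 and 420.4 CPM with IL-2v, and at 247 and 336 CPM with IL-15. Every cytokine library of that day was above the library without cytokine, and the higher dose was above the lower for each cytokine. On day 5 it was at 146 and 330.1 CPM with 5 and 50 IU/mL IL-2, at 358 and 421 CPM with IL-2v, and at 136 and 291 CPM with IL-15. On day 10 the values were 380.0 and 283 CPM with IL-2, 204 and 234 CPM with IL-2v, and 127 and 278 CPM with IL-15. IL-2 was thus the only cytokine with more Pim1 at the lower dose, and that only on day 10. The highest level was 6.12 times the lowest, and of the 20 neighbours in the order of levels 7 had overlapping intervals. The 5 lowest libraries were the naive cells, both cultures at 5 IU/mL IL-2 or IL-15 of day 5, day 5 without cytokine and day 10 at 5 IU/mL IL-15.

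Pim2, a kinase linked to protein translation and survival, had its highest levels on day 3 with IL-2v and IL-2 at 50 IU/mL, whose intervals overlapped. It stood at 47.3 CPM in naive cells (44.2 to 50.6), 119 CPM without cytokine on day 3 and 46.4 CPM without cytokine on day 5, where the interval (43.8 to 49.1) overlapped that of the naive cells. On day 3 it was at 126 and 322 CPM with 5 and 50 IU/mL IL-2, 235 and 328 CPM with IL-2v, and 147 and 232 CPM with IL-15. On day 5 the IL-2 libraries had 61.5 and 227 CPM, the IL-2v libraries 241 and 246 CPM, and the IL-15 libraries 94.1 and 190.3 CPM. On day 5 IL-2v at the lower dose thus had about as much Pim2 as at the higher dose, and their intervals (234 to 248 and 239 to 252 CPM) overlapped. On day 10 Pim2 stood at 101 and 79.5 CPM with IL-2, 146 and 74.0 CPM with IL-2v, and 62.1 and 70.5 CPM with IL-15. The highest level was 7.07 times the lowest, and 12 of 20 neighbours in the order overlapped.

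Pim3, the least studied of these kinases, was counted at low levels and followed another course. It stood at 11.9 CPM in naive cells (10.4 to 13.6, 220 UMIs), at 7.42 CPM without cytokine on day 3 and at 9.43 CPM on day 5. On day 3 it was at 7.42 and 18.8 CPM with 5 and 50 IU/mL IL-2, at 10.8 and 23.0 CPM with IL-2v, and at 7.93 and 10.8 CPM with IL-15. On day 5 the values were 7.18 and 14.2 CPM with IL-2, 9.17 and 31.1 CPM with IL-2v, and 9.17 and 12.1 CPM with IL-15. The highest levels of these days were with IL-2v at 50 IU/mL on either day and with IL-2 at 50 IU/mL on day 3. On day 10 it was at 16.3 and 49.4 CPM with IL-2, 15.1 and 31.0 CPM with IL-2v, and 13.9 and 10.4 CPM with IL-15. The 49.4 CPM (46.8 to 52.1) of 50 IU/mL IL-2 was the highest and 6.87 times the lowest level, and 17 of 20 neighbours in the order overlapped.

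Myc had its lowest level and one of its highest with the same cytokine at the same dose, on different days. It stood at 57.2 CPM in naive cells (53.8 to 60.7), 104 CPM without cytokine on day 3 and 55.1 CPM on day 5. On day 3 it was at 111 and 225 CPM with 5 and 50 IU/mL IL-2, 149.6 and 219 CPM with IL-2v, and 106 and 139 CPM with IL-15. On day 5 the values were 95.6 and 151 CPM with IL-2, 209 and 158 CPM with IL-2v, and 102 and 146 CPM with IL-15. On both days every cytokine library had a higher CPM than the library without cytokine, though on day 3 the 5 IU/mL IL-2 and IL-15 libraries did so by less than their counting intervals or the choice of scaling allow to tell, and IL-2v on day 5 was the only culture with more Myc at the lower dose. On day 10 Myc stood at 200.3 CPM with 5 IU/mL IL-2 and at 24.4 CPM (22.6 to 26.3, 665 UMIs) with 50 IU/mL, the lowest of the 21 libraries and below the naive cells. IL-2v had 162 and 67.0 CPM on that day, and IL-15 80.6 and 142 CPM. The order of doses for Myc on day 10 was therefore opposite between IL-15 on one side and IL-2 and IL-2v on the other. The highest level was 9.23 times the lowest, the widest range of the 5 genes, and 14 of 20 neighbours overlapped.

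Odc1 was lowest in naive cells, at 33.6 CPM (31.0 to 36.3), and stood at 62.7 and 56.2 CPM without cytokine on days 3 and 5. On day 3 it was at 71.8 and 213 CPM with 5 and 50 IU/mL IL-2, 85.8 and 176 CPM with IL-2v, and 90.7 and 86.2 CPM with IL-15. On day 5 the values were 56.6 and 106 CPM with IL-2, 57.4 and 138 CPM with IL-2v, and 86.5 and 78.5 CPM with IL-15. On these days the enzyme's mRNA was higher at the higher dose of IL-2 and IL-2v, but not of IL-15. On day 10 Odc1 stood at 90.2 and 186 CPM with IL-2, 173 and 147 CPM with IL-2v, and 63.1 and 62.6 CPM with IL-15. The library with the least Myc was thus among the highest for Odc1. The highest level was 6.35 times the lowest, and 14 of 20 neighbours overlapped.

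**Figure D1:**
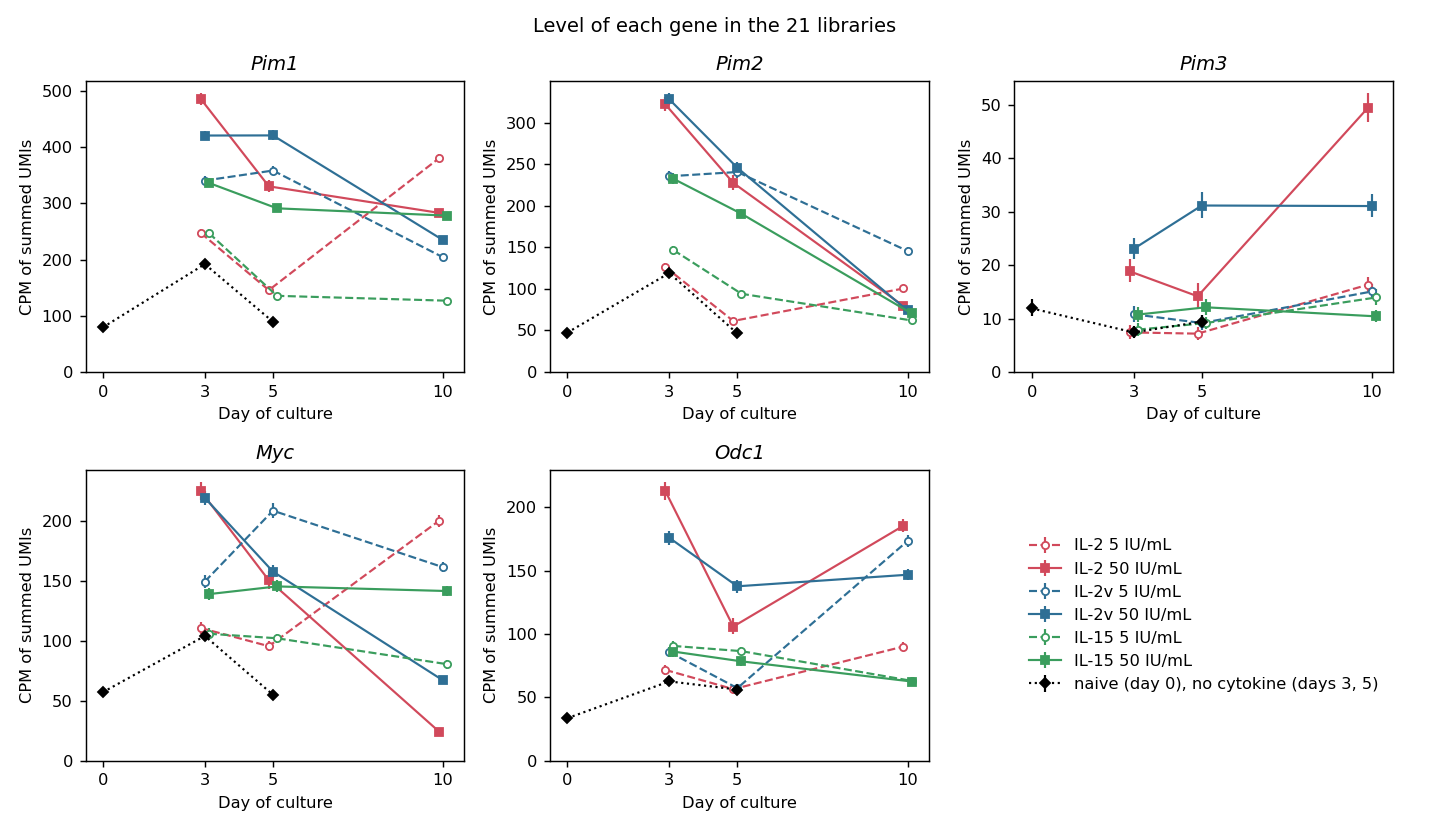
Level of each gene (CPM of summed UMIs, from 0) against the day of culture, with 1 point per library. Bars are 95% Poisson intervals, open symbols with dashed lines 5 IU/mL, filled squares with full lines 50 IU/mL, and black diamonds the naive cells and the cultures without cytokine. Pim2 is lower on day 10 than on day 5 in 5 of 6 cytokine cultures, Pim3 is highest with 50 IU/mL IL-2 on day 10, and Myc is lowest in that same library.

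All 5 genes varied more between libraries than most genes. The SD of log2(CPM + 1) over the 21 libraries, which here describes different conditions and not replicate error, was 0.73 for Pim1, 0.90 for Pim2, 0.71 for Pim3, 0.78 for Myc and 0.69 for Odc1. The median was 0.35 over the 5495 genes that averaged 20 CPM or more. Between 87.4% (Odc1) and 92.6% (Pim2) of those genes had a smaller SD. Pim3, with a median of 11.9 CPM, averaged less than 20 CPM and was ranked against genes with more UMIs. The 5 genes were chosen with earlier results of these data known.

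The share of cells with a UMI moved with the level. After each cell was thinned to 2000 UMIs, which leaves out 57 to 393 cells of a library with fewer, Pim1 had a UMI in 13.5% of naive cells (exact Clopper-Pearson 95% interval 12.5% to 14.5%) and 59.1% of the day 3 cells given IL-2 at 50 IU/mL (57.4% to 60.8%). The unthinned shares were 21.7% and 81.9%. Pim2 ranged from 8.28% to 44.0%, Pim3 from 1.30% to 8.01%, Myc from 4.30% to 34.4% and Odc1 from 6.53% to 30.7%. Myc was found in 4.30% of thinned cells (11% unthinned) on day 10 with IL-2 at 50 IU/mL, against 31.7% (51.2%) with 5 IU/mL. No cell type that lacks these genes was in the libraries, so the share given by free RNA is not known. Within a library the variance of the thinned counts divided by their mean, which random sampling alone puts near 1, was 1.12 to 1.31 for Pim1, 1.06 to 1.34 for Pim2, 0.98 to 1.19 for Pim3, 1.09 to 1.28 for Myc and 1.04 to 1.23 for Odc1.

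Activation by beads, without cytokine, went with more Pim1 and Pim2 on day 3 than in naive cells. Differences are of log2(CPM + 1), the first library minus the second, and a gene was compared where either library had at least 20 CPM. Pim3, with a median of 11.9 CPM over the libraries, passed that floor mainly in pairs where 1 library was high. That favours a call toward that library. Pim1 was higher by 1.26 (interval 1.18 to 1.35) and Pim2 by 1.31 (1.2 to 1.42). Myc was higher by 0.85 and Odc1 by 0.88, short of the 2-fold limit of 1, and Pim3 was below 20 CPM in both libraries. So 2 of 4 members compared were at least 2-fold higher and 0 lower, where 11.1% of 6171 genes were higher and 8.31% lower. Among the other genes of the pathway, those for the receptor and JAK-STAT proteins had 3 of 8 at least 2-fold higher and 0 lower, with a median of -0.15. Il2ra, the high-affinity IL-2 receptor chain, went from 5.63 to 149 CPM and Il2rb, the shared beta chain, from 87.6 to 355 CPM. The STAT5 induced genes had 1 of 7 past the limit upward and 3 downward, with a median of -0.71, and Socs2 was at 3.14 and Socs3, another feedback gene, at -1.60. Of 27 MYC induced genes, 5 were higher and 2 lower, with a median of -0.03 against -0.11 for all genes. Ldha, lactate dehydrogenase A, was higher by 2.33 and Tfrc, the transferrin receptor, by 2.05, whereas Rrp9, a ribosomal RNA processing factor, was at -1.15.

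Without cytokine Pim1, Pim2 and Myc were lower again on day 5. Pim3, below 20 CPM on both days, stood at 9.43 against 7.42 CPM. Pim1 was lower than on day 3 by 1.09 and Pim2 by 1.34, Myc stood at -0.91 and Odc1 at -0.15. At least 2-fold lower were 2 of 4 members, against 9.47% of 5785 genes lower and 3.61% higher. With TMM scaling (edgeR's trimmed mean of M values) the lower calls among all genes were 484 and the higher 297, against 548 and 209. Pim1 then stood at -0.98, and it was also within the limit with cells of at most 5% mitochondrial UMIs (-0.96) and just short of it, at -1.0, among cells lacking UMIs of the proliferation genes Mki67 and Top2a. The share of cells with such a UMI was 60.0% on day 3 and 13.8% on day 5. Odc1 was higher on day 5 among cells with such a UMI, at 78.7 against 69.2 CPM, and among the others, at 51.2 against 48.7 CPM. Of the 8 receptor and JAK-STAT genes 2 were at least 2-fold lower, Il2ra at 34.0 against 149 CPM and Il2rb at 142 against 355 CPM, and 2 higher, the common gamma chain Il2rg by 1.02 and the kinase Jak1 by 1.01. The STAT5 induced genes had 2 of 7 past the limit upward and 1 downward, with a median of 0.75, and were led by the cyclin Ccnd2 at 1.26, with Socs2 at -2.04. Of 26 MYC induced genes 7 were at least 2-fold lower and 0 higher, led by Tfrc at -2.28 and the amino acid transporter Slc7a5 at -1.86.

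Each cytokine library of days 3 and 5 was set against the library without cytokine of its day, so the 6 differences of a day share that library. Of 50 member values compared, 24 were at least 2-fold higher and 0 lower, where 6.31% of 69309 gene values were higher and 2.04% lower. Pim3 was compared in only 2 of its 12 pairs, which reached 20 CPM through the cytokine library, and both were among the 24. The split among all genes was 4371 higher and 1417 lower, and 3165 and 2256 with TMM scaling, which left 20 member values higher. Each of Pim1, Pim2, Myc and Odc1 was above 0 in all 12 pairs, but with TMM scaling Pim2 and Myc with 5 IU/mL IL-2 and Myc with 5 IU/mL IL-15 on day 3, and Odc1 with 5 IU/mL IL-2v on day 5, were below 0, the last at -0.13 and the others between -0.05 and 0.00. With only cells lacking Mki67 and Top2a UMIs, Odc1 with 5 IU/mL IL-2v on day 5 was at 39.9 CPM, below 51.2 CPM without cytokine. Myc with 5 IU/mL IL-15 on day 3 was then at 107 CPM, below 110 CPM. Among all genes 9.91% were above 0 in all 12 pairs and 4.64% below 0. Pim1 was above the median of all genes in 12 pairs, Pim2 and Odc1 in 11 and Myc in 10. The median of all genes lay between -0.13 and 0.30 in these pairs, and the TMM scaling brought it to between -0.10 and 0.03. The scalings moved member values by at most 0.38, so the direction of these 24 values could not change.

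**Figure D2:**
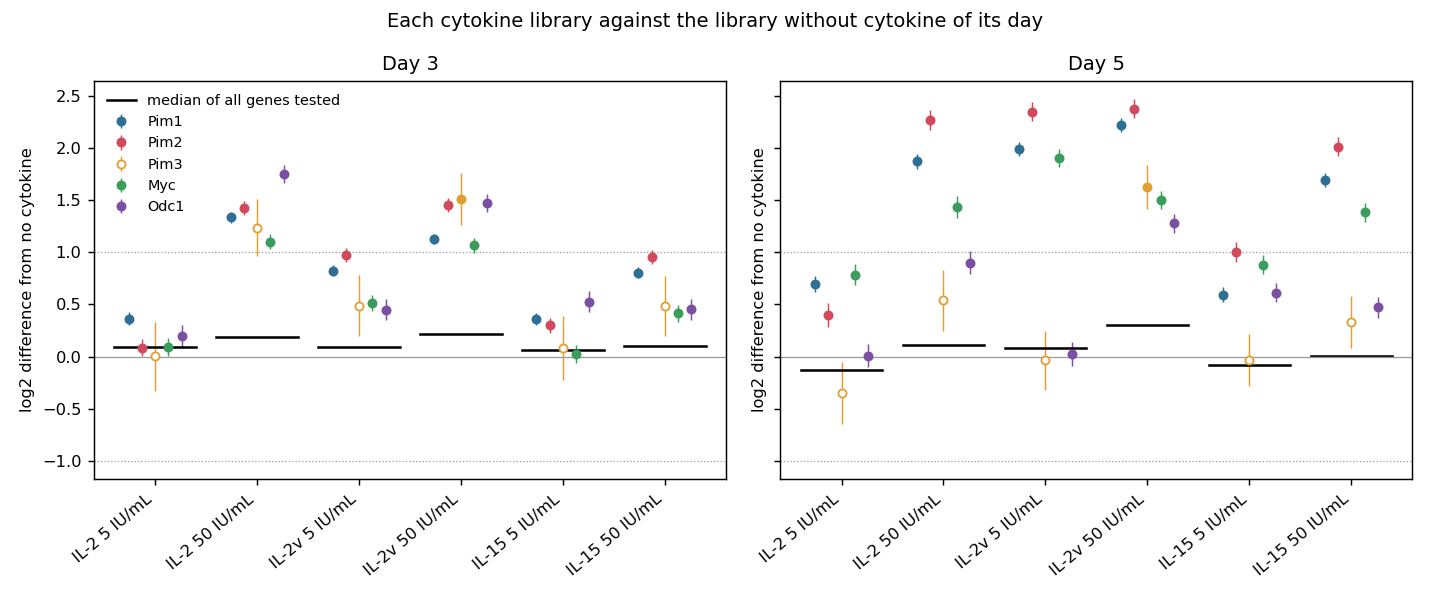
Difference of log2(CPM + 1) of each gene from that day's library without cytokine. Bars are 95% counting intervals, open points are pairs in which the gene was below 20 CPM in both libraries, black lines the median of all genes and dotted lines the 2-fold limit. With 50 IU/mL IL-2 or IL-2v on day 3 all 5 genes lie above 1, and on day 5 Pim1, Pim2 and Myc lie above 1 with IL-2v at either dose and with IL-2 and IL-15 at 50 IU/mL.

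On day 3 only the 2 libraries with IL-2 or IL-2v at 50 IU/mL had members past the limit. Pim1, Pim2, Myc and Odc1 were higher by 1.34, 1.43, 1.10 and 1.75 with 50 IU/mL IL-2, where 6.45% of genes were at least 2-fold higher. With 50 IU/mL IL-2v they were higher by 1.13, 1.45, 1.07 and 1.48 and Pim3 by 1.51, where 7.83% of genes were. With TMM scaling Myc was at 0.96 under IL-2 and 0.88 under IL-2v, and Pim1 at 0.94 with IL-2v. Among cells lacking Mki67 and Top2a UMIs, Pim2 was at 0.93 with 50 IU/mL IL-2v, a library with 86.9% of cells positive for such a UMI. With 5 IU/mL IL-2 all 4 values were between 0.09 and 0.36, and with 5 IU/mL IL-15 between 0.02 and 0.53. IL-2v at 5 IU/mL and IL-15 at 50 IU/mL gave close values for Pim1 (0.82 and 0.81), Pim2 (0.98 and 0.96) and Odc1 (0.45 in both). Myc stood at 0.52 and 0.41, and its intervals (144.4 to 154.9 and 134.1 to 144.2 CPM) did not overlap.

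On day 5 Pim1, Pim2 and Myc stood further from the culture without cytokine than on day 3, with each cytokine at each dose. Pim2 was higher by 2.27 with 50 IU/mL IL-2, by 2.35 and 2.38 with 5 and 50 IU/mL IL-2v, and by 2.01 with 50 IU/mL IL-15. Pim1 was higher by 1.87, 1.99, 2.22 and 1.69 in the same libraries, and Myc by 1.43, 1.90, 1.5 and 1.38. Pim3 was past the limit only with 50 IU/mL IL-2v, higher by 1.62, and with 50 IU/mL IL-2 and IL-15 it stood at 0.54 and 0.33, each below 20 CPM in both libraries. Odc1 was spread more widely over these libraries. It stood at 0.90 with 50 IU/mL IL-2, at 0.03 (interval -0.09 to 0.14) with 5 IU/mL IL-2v, at 1.28 with 50 IU/mL IL-2v (0.94 with TMM scaling) and at 0.47 with 50 IU/mL IL-15. The background of genes at least 2-fold higher was 16.5%, 9.75%, 21.1% and 5.82% in these 4 libraries. With 5 IU/mL IL-2 the members were at most at 0.78 (Myc), and with 5 IU/mL IL-15 Pim2 was at 1.01, where 1.42% of genes were at least 2-fold higher, and the others were at most at 0.88. Pim2 in that library lay on the limit and was at 0.97 with cells of at most 5% mitochondrial UMIs. The shared library without cytokine was itself lower on day 5 than on day 3. Pim1 was at 89.5 against 192 CPM there, Pim2 at 46.4 against 119 CPM and Myc at 55.1 against 104 CPM. With cytokine, Pim1 was lower on day 5 than on day 3 in 4 of 6 cultures, Pim2 in 5 and Myc in 4.

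The lists of pathway genes were written with earlier results of these data known, so their counts are descriptions. Over all genes, 9.97% of gene values were at least 2-fold higher than without cytokine and 3.34% lower at 50 IU/mL, and 2.36% and 0.647% at 5 IU/mL. STAT5 induced genes were at least 2-fold higher than without cytokine in 35 of 61 gene values at 50 IU/mL and 10 of 45 at 5 IU/mL, with 1 and 0 lower. Bcl2, a survival factor, was higher in all 12 libraries, by a median of 2.22 on day 3 and 3.07 on day 5, and Cish, a feedback inhibitor of the receptor, by a median of 1.34 on day 3. Mcl1, another survival factor in the list, lay at a median of -0.16 on day 3 and -0.79 on day 5. The MYC induced genes had 65 of 161 gene values higher and 4 lower at 50 IU/mL, and 7 of 155 higher and 0 lower at 5 IU/mL. Slc7a5 led with medians of 1.65 and 2.49 on days 3 and 5. The polyamine genes beside Odc1 had 13 of 70 values higher and 3 lower at 50 IU/mL, and 0 of 64 higher and 1 lower at 5 IU/mL. Among them Srm, spermidine synthase, had a median of 0.98 on day 3, Azin1, the antizyme inhibitor that protects ornithine decarboxylase, had 0.86 on day 5, and Sat1, which starts polyamine breakdown, had -0.93 on day 5.

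The MYC network holds the partner MAX and the MXD proteins that compete with MYC for it. Against no cytokine 7 of 87 gene values were at least 2-fold higher and 7 lower. Mxd4, an antagonist of quiescent cells, had a median of -0.79 on day 3 and -1.07 on day 5 and was below 0 in all 12 libraries. Mxd3, an antagonist found in cycling cells, had -0.32 on day 3 and 1.70 on day 5. Of the genes for PIM substrates, 11 of 102 values were higher and 2 lower, and the list's median was above that of all genes in 4 of 12 pairs. Both lists' shares of higher values, 8.05% and 10.8%, stand beside 6.31% for all genes, and their shares of lower values, 8.05% and 2.0%, beside 2.04%. Cdkn1a, the cell cycle inhibitor p21, led with medians of 0.66 and 1.48 and a range up to 5.99. Bad, a death-promoting protein that PIM kinases inactivate, was below 0 in all 12 libraries, with medians of -0.22 and -0.43.

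The step from 5 to 50 IU/mL was compared in 9 pairs of equal cytokine and day. Of 40 member values 14 were at least 2-fold higher at 50 IU/mL and 2 lower, against 4.58% and 3.38% of 52087 gene values. Pim3 was compared in 4 of its 9 pairs, each reaching 20 CPM only at 50 IU/mL, and gave 3 of the 14. With TMM scaling 8 were higher and 2 lower. The 6 values then short of the limit were Myc with IL-2 on day 3 at 0.96, Pim1 with IL-2 on day 5 at 0.99, Pim3 and Odc1 with IL-2v on day 3 at 0.92 each, and Pim1 and Pim2 with IL-15 on day 5 at 0.95 and 0.87. Pim3 was higher on all 3 days with IL-2, by 1.24, 0.89 and 1.54, of which only the last was a pair with at least 20 CPM. It was higher on all 3 days with IL-2v, by 1.03, 1.66 and 1.0, the last just under the limit. The share of all genes above 0 on each of the 3 days was 21.8% for the IL-2 step, 21.3% for that of IL-2v and 20.5% for that of IL-15. With IL-15 Pim3 stood at 0.40, 0.37 and -0.39, each below 20 CPM in both libraries. A median over the days of at least 1 with the same sign on each was met in the IL-2 step by Pim3 and Odc1, in the IL-2v step by Pim3 and in the IL-15 step by Pim1. With TMM scaling the medians of Pim3 with IL-2v, just under 1, and of Pim1 with IL-15, at 0.95, missed that limit. Among all genes it was met upward by 4.29%, 2.38% and 0.869%. For that rule a gene had to average at least 20 CPM over the 3 days at 5 or at 50 IU/mL. Pim3 did so only at 50 IU/mL, with IL-2 through the 49.4 CPM of day 10. Its IL-2 median of 1.24 was the day 3 value, from a pair below 20 CPM in both libraries.

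Odc1 was higher at 50 than at 5 IU/mL of IL-2 by 1.56, 0.89 and 1.03 on days 3, 5 and 10, and of IL-2v by 1.03 and 1.25 on days 3 and 5, with -0.24 on day 10. With IL-15 it stood at -0.07, -0.14 and -0.01. The intervals of the first and last of these (-0.16 to 0.02 and -0.11 to 0.09) included 0 and all 3 left out the 2-fold limit. Pim1 with IL-15 was higher by 0.44, 1.10 and 1.13, and Pim2 by 0.66, 1.01 and 0.18. Pim1 was thus higher at the higher dose of IL-15 on each day, while Odc1 stayed within counting error or was lower, and on day 10 its sign turned with the scaling.

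Myc differed most with dose on day 10. With IL-2 it was higher at 50 IU/mL by 1.02 and 0.65 on days 3 and 5 and lower by 2.99 (interval -3.10 to -2.87) on day 10, the largest difference of any member in any pair. With IL-2v it stood at 0.55, -0.40 and -1.26, and with IL-15 at 0.39, 0.51 and 0.81. In the IL-2 pair of day 10, 14.5% of genes were past the limit downward and 6.57% upward, and the median of all genes was -0.30. Odc1 at 1.03 and Pim3 at 1.54 were higher in that same pair, and Pim1 and Pim2 stood at -0.42 and -0.33. Of 25 MYC induced genes in the pair, 5 were past the limit upward and 0 downward, with a median of 0.59. Over the 3 days of the IL-2 step Slc7a5 was higher by 2.23 to 4.70 and Shmt2, a mitochondrial serine enzyme, by 1.48 to 1.88. Of 12 STAT5 induced genes in the day 10 pair 1 was higher and 6 lower, with a median of -0.88. The share of cells with a Mki67 or Top2a UMI was 18.2% at 5 and 13.4% at 50 IU/mL.

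IL-2v was compared with IL-2 at equal dose and day in 6 pairs. Of 27 member values 5 were at least 2-fold higher with IL-2v and 0 lower, against 3.99% and 2.55% of 34988 gene values. With 5 IU/mL on day 5 Pim1 was higher by 1.29, Pim2 by 1.95 and Myc by 1.12 (0.92 with TMM scaling), where 7.29% of genes were higher. Odc1 stood at 0.02 (-0.10 to 0.14) in that pair. The other values past the limit were Pim3 at 50 IU/mL on day 5, by 1.08, and Myc at 50 IU/mL on day 10, by 1.42. Pim3 in the first of these was at 0.90 with TMM scaling, 0.77 with a pseudocount of 10 and 0.63 among cells lacking Mki67 and Top2a UMIs. It was compared in 3 of its 6 pairs, and this day 5 pair reached 20 CPM only with IL-2v. Odc1 at 5 IU/mL on day 10 stood at 0.94, and with TMM scaling at 1.11. At 50 IU/mL on day 3 all 5 values were between -0.27 and 0.28.

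No member met the rule of the same sign in all 6 of these pairs with a median of at least 1, which 1.04% of genes met upward and 0.274% downward. Pim1 was higher with IL-2v in 3 pairs and lower in 3, from -0.89 with 5 IU/mL on day 10 to 1.29. Pim2 was higher in 5 of 6 pairs, with a median of 0.32, though at 50 IU/mL on days 3 and 5 it was lower with TMM scaling. The MYC induced genes had 40 of 161 gene values at least 2-fold higher with IL-2v and 0 lower, led by Slc7a5 with a median of 1.23 and Mybbp1a, a nucleolar protein, with 0.92. Srm was higher in all 6 pairs, with a median of 0.67, and Sat1 lower in all 6, with -1.19, where 17% of genes were higher and 4.21% lower in all 6. The PIM substrates had 2 of 51 values higher and 6 lower, with Cdkn1a at a median of -0.97.

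IL-15 against IL-2 gave 1 of 25 member values at least 2-fold higher and 5 lower, against 3.21% and 5.68% of 34310 gene values. Over all genes the higher and lower calls were 1102 and 1950, and 2320 and 1968 when ribosomal protein and mitochondrial genes were left out of the totals. The value higher was Myc at 50 IU/mL on day 10, by 2.49, where IL-2 had the lowest Myc of all. The values lower were Odc1 at 50 IU/mL on days 3 and 10, at -1.30 and -1.55, Pim3 at 50 IU/mL on day 10, at -2.14, and Pim1 and Myc at 5 IU/mL on day 10, at -1.58 and -1.30. Pim3 was compared only in that 1 of its 6 pairs, which reached 20 CPM only with IL-2. All of these calls but Odc1 on day 3 fell in the day 10 pairs. There 9.86% of genes passed the limit upward and 11.6% downward at 50 IU/mL. At 5 IU/mL on day 10 the shares were 2.42% and 9.19%. The downward share was 3.62% in the day 3 pair of Odc1. At 5 IU/mL on day 3 Pim1 stood at 0.00 and Myc at -0.06, with intervals of -0.06 to 0.06 and -0.15 to 0.02. In that pair 0% of genes were past the limit upward and 0.452% downward. Pim2 and Odc1 were higher with IL-15 there, at 147 against 126 CPM and at 90.7 against 71.8 CPM. At 5 IU/mL on day 5 Pim2 and Odc1 were higher with IL-15 by 0.61 and 0.60, and Pim1 was lower, at 136 against 146 CPM. Of STAT5 induced genes 5 of 58 values were higher and 18 lower, with Gadd45g, a stress response gene, at a median of -1.96. Cdkn1a among the PIM substrates had a median of -3.92 and Il2ra of -1.66, each lower in all 6 pairs, as were 9.58% of genes.

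IL-2v against IL-15 gave 10 of 27 member values at least 2-fold higher and 1 lower, against 6.15% and 2.48% of 35025 gene values. Pim3 was compared in 3 of its 6 pairs, each reaching 20 CPM only with IL-2v, and all 3 were higher. The calls over all genes were 2155 higher and 869 lower, and 2195 and 1668 without ribosomal protein and mitochondrial genes in the totals. Pim3 was higher by 1.03, 1.29 and 1.49 at 50 IU/mL on days 3, 5 and 10. Odc1 was higher by 1.02 and 1.22 at 50 IU/mL on days 3 and 10 and by 1.44 at 5 IU/mL on day 10, but stood at -0.59 at 5 IU/mL on day 5. In that last pair Pim1, Pim2 and Myc were higher by 1.4, 1.34 and 1.02. Pim2 was also higher at 5 IU/mL on day 10, by 1.22. The value lower was Myc at 50 IU/mL on day 10, at -1.07 (-1.15 to -0.99). Pim2 was above 0 in all 6 pairs, with a median of 0.59 (1 pair, 50 IU/mL on day 10, was below 0 with the totals without ribosomal protein and mitochondrial genes), and 19.1% of genes were higher in all 6. With TMM scaling 8 were higher and 1 lower. Pim3 and Odc1 at 50 IU/mL on day 3 were then at 0.95 and 0.94 and Myc at 5 IU/mL on day 5 at 0.82, while Myc at 5 IU/mL on day 10 went from 0.99 to 1.08. With a pseudocount of 10, 6 values were past the limit upward and 0 downward, so the lower value of Myc was within it. Pim3 then stood at 0.67 at 50 IU/mL on day 3. No member met the rule of a median of at least 1, which 2.48% of genes met upward and 0.585% downward. These comparisons share libraries with those above, so each is given by its own values.

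**Figure D3:**
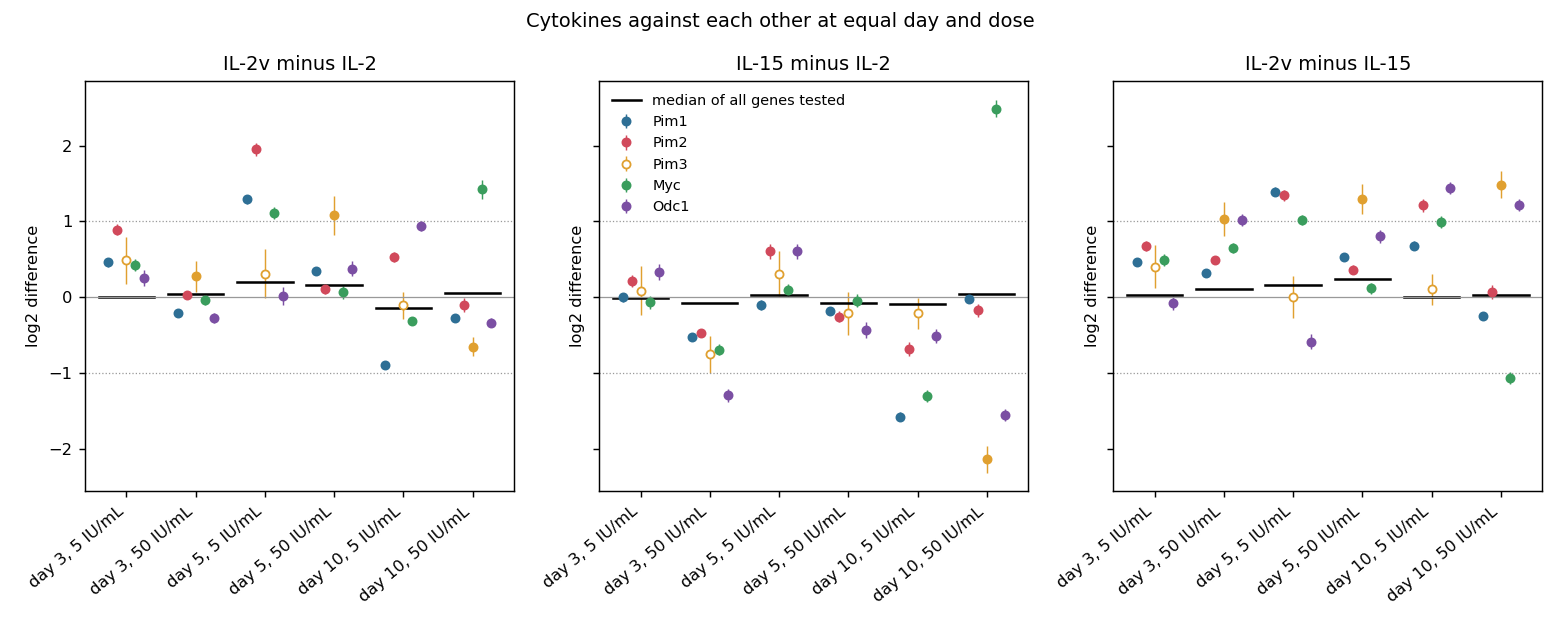
Difference of log2(CPM + 1) between cytokines at equal day and dose, 1 panel per pair of cytokines. Bars are 95% counting intervals, open points are pairs in which the gene was below 20 CPM in both libraries, black lines the median of all genes and dotted lines the 2-fold limit. Pim1, Pim2 and Myc stand together at 5 IU/mL on day 5 with IL-2v, with Odc1 apart from them, and Myc stands alone at 2.49 for IL-15 minus IL-2 at 50 IU/mL on day 10.

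From day 3 to day 5 with cytokine few member values moved past the limit. Of 25 values 0 were at least 2-fold higher and 2 lower, against 1.79% and 5.25% of 35655 gene values. The calls over all genes were 638 higher and 1871 lower, and 878 and 1264 with TMM scaling. The member values were Pim2 with 5 IU/mL IL-2 at -1.03 and Odc1 with 50 IU/mL IL-2 at -1.0, and with TMM scaling these were at -0.79 and -0.90. Odc1 was below 0 in all 6 pairs, as were 27% of genes, but above 0 with 5 IU/mL IL-15 under both other scalings. Pim1 stood at 0.07 and 0.00 with 5 and 50 IU/mL IL-2v, and at -0.76 and -0.86 with 5 IU/mL IL-2 and IL-15. Myc with 5 IU/mL IL-2v was the highest value for that gene, at 0.48.

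From day 5 to day 10 the genes parted. Of 26 member values 4 were at least 2-fold higher and 5 lower, against 2.73% and 7.68% of 34374 gene values. The calls over all genes were 940 higher and 2639 lower, and 1539 and 1694 with TMM scaling. The 5 lower member values all came from 50 IU/mL cultures. At that dose 19.4% of genes fell past the limit under IL-2, 11.6% under IL-2v and 4.44% under IL-15. Pim2 was lower in 5 of 6 cultures, by 1.51 and 1.72 with 50 IU/mL IL-2 and IL-2v and by 1.42 with 50 IU/mL IL-15. Myc was lower by 2.58 with 50 IU/mL IL-2 and by 1.22 with 50 IU/mL IL-2v (-0.84 with TMM scaling), and stood at -0.04 (-0.10 to 0.03) with 50 IU/mL IL-15. The 4 values higher were Pim1 and Myc with 5 IU/mL IL-2, by 1.38 and 1.06, Pim3 with 50 IU/mL IL-2, by 1.73, and Odc1 with 5 IU/mL IL-2v, by 1.58. Pim3 was compared in 2 of its 6 pairs, and that of 50 IU/mL IL-2 reached 20 CPM only on day 10. With TMM scaling Myc with 5 IU/mL IL-2 was at 0.89, and Odc1 with 50 IU/mL IL-2 went from 0.80 to 1.13. With 5 IU/mL IL-2 all 5 genes were higher on day 10 than on day 5, by 0.66 to 1.38. Pim3 among them was below 20 CPM in both libraries, at 16.3 against 7.18 CPM. The median of all genes in that pair was 0.26, and 4.62% were past the limit upward and 2.02% downward. In the 50 IU/mL cultures the share of cells with a Mki67 or Top2a UMI went from 50.4% on day 5 to 13.4% on day 10 under IL-2, from 66.7% to 25% under IL-2v and from 24.6% to 13.1% under IL-15. With only cells that lacked such a UMI, 126 of the 228 member values of all comparisons moved beyond their counting interval and 73 of 77 stayed past the limit.

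Within libraries the genes differed in how they went with proliferation. Cells with a UMI of Mki67 or Top2a, called cycling here, were set against the other cells of the same library by summed UMIs. Odc1 was higher in the cycling cells in 20 of 21 libraries, with a median difference of 0.51 and 19 intervals above 0. The exception was 50 IU/mL IL-2v on day 3, at -0.13. Pim2 was lower in the cycling cells in 17 of 21 libraries, with a median of -0.40 and 14 intervals below 0. It was higher with its interval above 0 in 2 libraries of day 10, at 0.46 (0.33 to 0.59) with 50 IU/mL IL-2v and at 0.39 (0.12 to 0.67) with 5 IU/mL IL-15. On day 3 with 5 IU/mL IL-2, for instance, Pim2 stood at 105 CPM in cycling and 176 CPM in other cells, and Odc1 at 78.7 and 55.7 CPM. The Pim2 difference was above that of only 5.26% of tested genes in the median library, and the Odc1 difference above that of 86.5%.

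Myc was lower in cycling cells in 15 libraries, with a median of -0.12 and with 10 intervals below 0 and 1 above. Pim1 had a median of -0.08 and was higher in 8 libraries, with 8 intervals below 0 and 4 above, and Pim3 had a median of 0.20 with 16 libraries higher and 4 intervals above 0. No member differed at least 2-fold in any library, whereas 0.0929% to 8.07% of genes were past that limit upward in cycling cells and 0% to 0.893% downward. When cells were thinned to 2000 UMIs and called cycling afterwards, Odc1 was higher in 19 libraries and Pim2 lower in 17, Myc was lower in 18 and Pim1 was higher in 11. Over libraries the relation of Pim2 had the opposite sign. Its level was higher in libraries with a larger share of cycling cells, with a Pearson r of 0.86 and a Spearman rho of 0.87 over the 21 libraries, against r of 0.65 for Pim1, 0.59 for Myc, 0.46 for Odc1 and 0.02 for Pim3. The libraries share cytokines, days and controls and are not independent, so these are descriptions.

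**Figure D4:**
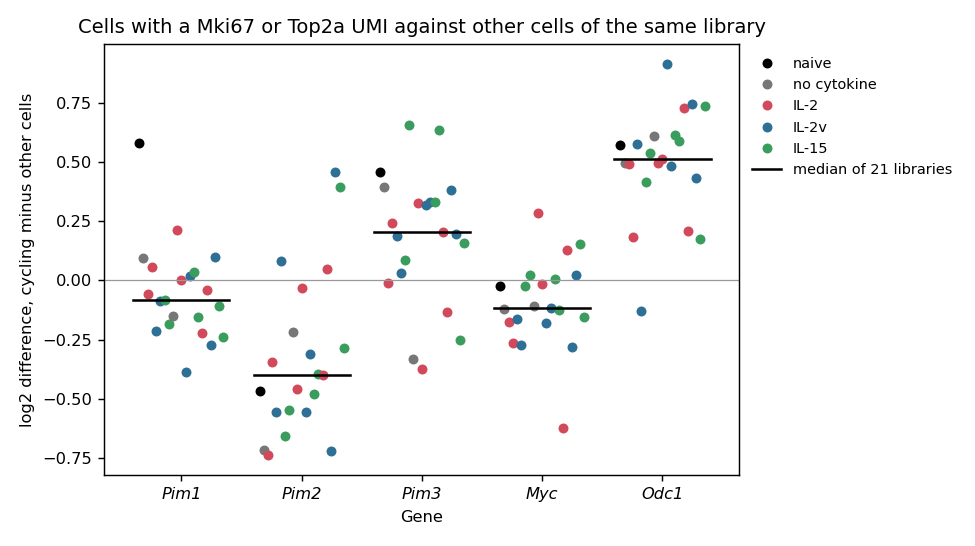
Difference of log2(CPM + 1) between cells with a Mki67 or Top2a UMI and the other cells of the same library, 1 point per library, coloured by cytokine, with the median of 21 libraries as a line. Odc1 lies above 0 in 20 libraries and Pim2 below 0 in 17, and no point reaches 1 in size.

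Detection of one member in a cell went with small differences in detection of another, in either direction. Among cells thinned to 2000 UMIs, the share with Pim1 was a median of 3.54 percentage points higher in cells with a Myc UMI than in cells without, higher in 16 of 21 libraries and with separate 95% intervals in 6, all upward. For Pim2 in cells with Myc the median was 2.41 points, higher in 18 libraries and with separate intervals in 5. Odc1 in cells with Myc gave a median of 0.55 points and separate intervals in 1 library. For Odc1 in cells with Pim1 the median was -1.27 points, higher in 4 of 21 libraries, with separate intervals in 1 library, where it was lower. For Odc1 in cells with Pim2 the median was -0.74 points, higher in 6 libraries, with separate intervals in 1 library, where it was lower. The largest median, 4.35 points, was for Myc in the few cells with Pim3. It ranged from -2.53 to 14.2 points, higher in 15 libraries and with separate intervals in 1, upward. With 1 or a few UMIs per positive cell these shares are coarse.

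Over the 21 libraries Pim1 and Pim2 followed each other most closely, with r of 0.83 and rho of 0.85 for log2(CPM + 1). Myc went with Pim2 at r of 0.73 and with Pim1 at 0.62. Odc1 went with Pim1 at 0.63 and with Pim2 at 0.52, and Pim3 went with Pim1 at 0.38. By r among 5494 genes, Pim2 ranked 56 for Pim1, and Pim1 ranked 219 for Pim2. Myc ranked 704 for Pim2 and 865 for Pim1, while for Myc Pim2 ranked 59 and Pim1 376. The median r of all genes was 0.26 with Pim2 and 0.18 with Pim1. Over the 18 cytokine libraries r of Myc was 0.66 with Pim2 and 0.49 with Pim1. Over the same libraries r of Pim1 with Pim2 was 0.76, and r of Odc1 was 0.42 with Pim1 and 0.35 with Pim2. Pim3 went with Odc1 at 0.72 and with Pim2 at 0.13 (rho of 0.27), and with Myc r was -0.22 and rho 0.24, opposite in sign. Myc and Odc1 had r of 0.18 and rho of 0.39, and r of -0.07 over the 18 cytokine libraries. By r with Odc1, Myc ranked 2450 among 5494 genes. The mean of 27 MYC induced genes had r of 0.41 with Myc, 0.75 with Odc1, 0.73 with Pim2, 0.64 with Pim1 and 0.49 with Pim3. On day 10 with 50 IU/mL IL-2, where Myc was lowest, that mean was 0.46 above naive cells and ranked 10 of the 21 from the top. The mean of 10 STAT5 induced genes had r of 0.79 with Pim1, 0.44 with Pim2, 0.70 with Pim3, 0.36 with Myc and 0.71 with Odc1. That list holds Bcl2l1 and Socs2, named below among the genes most like Pim1 by r. The 2 lowest libraries for that mean were the naive cells and day 5 without cytokine, which are also the 2 lowest for Pim1. The mean of the 8 receptor and JAK-STAT genes had r of 0.82 with Pim2 and 0.76 with Pim1, and 0.03 with Pim3. For the mean of 9 genes for PIM substrates r with Pim1 was also 0.79.

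**Figure D5:**
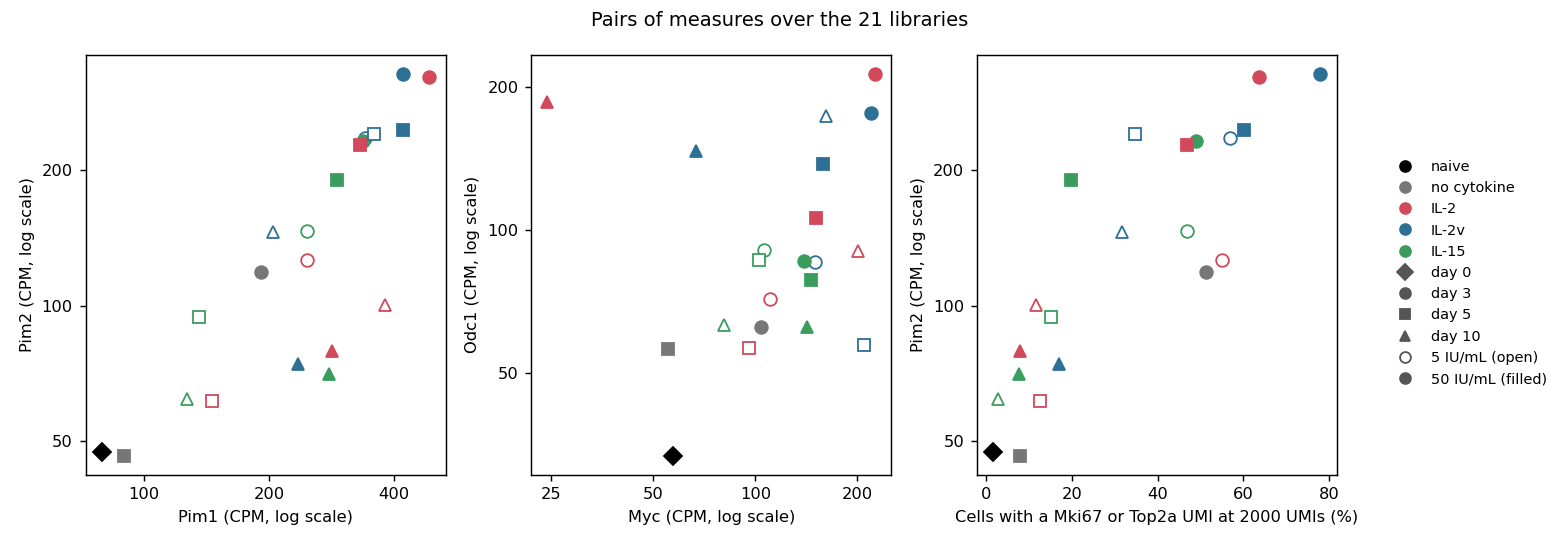
Pairs of measures over the 21 libraries, with 1 point per library, colour for the cytokine, shape for the day, open points for 5 IU/mL and logarithmic CPM axes. Pim2 against Pim1 lies along a band with most day 10 libraries below it, Odc1 against Myc is scattered with the 50 IU/mL IL-2 library of day 10 at the upper left, and Pim2 is higher in libraries with more cycling cells.

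The 5 genes whose levels were most like each member were taken by r over the 21 libraries among genes that averaged 20 CPM or more. For Pim1 they were Gm17767 (r of 0.92), Bcl2l1 (0.91), which encodes the survival factor BCL-XL, Prelid2 (0.90), Pkm (0.89), the glycolytic pyruvate kinase, and Socs2 (0.89), a feedback gene of cytokine receptors. For Pim2 they were Pqbp1 (0.96), Arl5a (0.92), Tfrc (0.91), Rbm17 (0.91) and Ipo7 (0.90), of which Rbm17 encodes a splicing factor and Ipo7 a nuclear import receptor. For Pim3 they were Selenos (0.92), Eif5 (0.91), a translation initiation factor, Golga7 (0.89), Trim35 (0.87) and Pi4k2a (0.87). For Myc they were Iqgap2 (0.88), Selenoh (0.87), Lta4h (0.85), Armc10 (0.83) and Racgap1 (0.83), a gene of cell division. For Odc1 they were Lrrc59 (0.90), Lman1 (0.88), Prmt5 (0.88), the arginine methyltransferase, Psma7 (0.87), a proteasome subunit, and Rwdd1 (0.87). Over the 18 cytokine libraries Pqbp1, Selenos and Lrrc59 still ranked 1 for Pim2, Pim3 and Odc1, while Gm17767 ranked 24 for Pim1 and Iqgap2 ranked 3 for Myc. Larger drops were to 54 for Socs2 (Pim1), to 48, 47 and 43 for Arl5a, Tfrc and Ipo7 (Pim2) and to 40 for Armc10 (Myc).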

How the data were processed

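The 21 deposited tables hold UMI counts per gene and cell, 1 table per library. Per the submitters' processing notes the authors used Cell Ranger and Seurat 4.0.1 and 3.0.2 with the mm10 build. The annotation, the strand setting and the cell filters are not given in the sources used here. Barcodes passed with 1000 UMIs or more, 500 genes or more and no more than 10% of UMIs mitochondrial, which left 106456 of 106458. No doublet caller was run. Counts were summed per library and divided by the total to give CPM, with 95% Poisson intervals. Differences are of log2(CPM + 1). Genes with at least 20 CPM in either library were compared, with a limit of 2-fold (1 on the log2 scale) and no test, since each condition was 1 library. Cells were thinned to 2000 UMIs for shares. Python 3.11.15, numpy 2.4.6, scipy 1.17.1 and R 4.3.3 with edgeR 4.0.16 (TMM factors only) were used, and the computations were tested on simulated data. Named genes were the 5 members, the 5 genes with the highest r for each, and at most the 2 highest and 2 lowest of each of 6 pathway lists in a comparison. The members and lists were chosen with earlier results of these data known. For each comparison 11 alternatives were run.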

Additional observations from a re-analysis of the deposited data

Results flagged for a closer look

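Pim1 stood out because its difference between IL-2v and IL-2 had opposite signs on 2 days, with counting intervals that left out 0 at either dose. The median of the 2 doses was 0.82 on day 5, with Pim1 higher with IL-2v at 5 and 50 IU/mL, and -0.58 on day 10, with Pim1 lower with IL-2v at either dose. Odc1 stood out because its difference between day 10 and day 5 had opposite signs between cytokines. IL-15 gave a median of -0.39 over the 2 doses, both lower on day 10, whereas IL-2v gave 0.84 and IL-2 gave 0.73. The IL-2v doses were unlike, at 1.58 with 5 IU/mL and 0.09 (interval 0.02 to 0.16) with 50 IU/mL. With 1 library per condition these differences between days and between cytokines were not tested.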

How the results depend on the processing

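Each count of member values past the 2-fold limit was recomputed under 11 alternatives. From day 3 to day 5 without cytokine the count of 2 became 1 with cells of at most 5% mitochondrial UMIs, with TMM scaling and with cells without a Mki67 or Top2a UMI. For IL-2v against IL-2 the count of 5 became 3 with a minimum of 100 CPM, which left 20 of 27 values compared. Pim3 at 50 IU/mL on day 5 and Myc at 50 IU/mL on day 10 were below that minimum and were left out. For IL-2v against IL-15 the count of 11 became 6 with a pseudocount of 10. For the dose step 16 became 10 with TMM scaling. From day 3 to day 5 with cytokine 2 became 1 with at most 5% mitochondrial UMIs and with the mean CPM of single cells, and 0 with TMM scaling, with totals without ribosomal protein and mitochondrial genes and with a pseudocount of 10. The cause of the other changes was not tested. The largest move of any value was 0.60, with a pseudocount of 10, so values past the limit of 1 could not change sign. Among all 228 member values 21 changed sign with TMM scaling. That scaling left 57 of 77 values past the limit and moved values by at most 0.38. With cells thinned to 1000 UMIs, 3 shares of co-detection changed sign: Pim2 in cells with Pim1 on day 5 without cytokine became -0.24 percentage points, Pim1 in cells with Myc on day 10 with 5 IU/mL IL-2v -0.50, and Odc1 in cells with Myc on day 10 with 50 IU/mL IL-2v -0.89. Libraries were paired by day, dose or cytokine, but not by replicate, since the labels carry no replicate numbers. Each condition was 1 library, so no replicate could be left out. Pim3, with 136 to 1347 UMIs in a library, has the widest intervals.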

Other observations

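Pqbp1, the gene whose level followed Pim2 most closely (r of 0.96, rho of 0.95, 37.1 to 87.4 CPM), lies near Pim2 on chromosome X, at chrX:7894519-7899269 on the minus strand, 11087 bases beyond the end of Pim2. Slc35a2, which lies between them, had r of 0.68 with Pim2, and Timm17b on the far side of Pqbp1 had 0.71. AW146154, a transcript with sequence close to Odc1, was lower where Odc1 was higher, with r of -0.72 and rho of -0.81 over the 21 libraries and at most 10.7 CPM.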
